A study of Homo sapiens with 6 samples.

Results

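The 10 genes described here, POU5F1, NANOG, LIN28A, LIN28B, DPPA4, SALL4, ZFP42, PRDM14, TDGF1 and DNMT3B, are markers of human pluripotent stem cells. They were chosen by name from the 20033 protein-coding genes of GENCODE (hg38), and every ATAC-seq peak overlapping the window of 3 kb on each side of the TSS, the gene body or 20 kb beyond either end was collected. The comparison asked whether neural progenitor cells (NPCs) made from stem cells had accessible chromatin at these genes. No stem cell sample was included, so whether a peak was kept from the stem cell state could not be assessed. ATAC-seq uses the Tn5 transposase to place sequencing adapters into open DNA, so that a peak marks a stretch of accessible chromatin. The 6 samples formed 3 groups of 2 replicates each, all derived from the H1 human embryonic stem cell line. WT NPCs were unmodified. The dKO NPCs carried a knockout of both UTX and JMJD3, the enzymes that take the repressive methyl mark off lysine residues of histone H3, made by deleting their catalytic sites in gene-targeted clones of H1. The third group was dKO NPCs that had received a lentivirus for BAF53B, which belongs to the form of the BAF nucleosome remodeller used by neurons, and it therefore carried the same knockout. WT and dKO NPCs were studied at an early passage after neural induction.

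In a pluripotent stem cell, the transcription factors OCT4 (encoded by POU5F1) and NANOG bind their own and each other's genes and hold a self-sustaining circuit open. SALL4, PRDM14, DPPA4 and ZFP42 (also known as REX1) are nuclear factors of the same state, the LIN28 proteins block maturation of let-7 microRNAs, TDGF1 (Cripto) is a co-receptor for Nodal, and DNMT3B lays down DNA methylation. Neural induction silences most of these genes, although LIN28A, LIN28B and DNMT3B can remain active in early neuroepithelium.

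The study pooled both replicates of a group into 1 peak list, so there were 3 lists, with no replicate values, and no difference below has a replicate check or a p-value. There were 7880 peaks for WT, 25439 for dKO and 16948 for dKO with BAF53B. The paper reports mainly reduced accessibility in dKO NPCs at early passage, so the WT and dKO list lengths run the other way. Why they differ from that report was not tested. Height is given as the number of fragments over the summit of a peak. The genome background, which is the smallest background of a list and follows its total number of fragments, was 6.33 fragments (WT), 6.81 (dKO) and 6.78 (dKO with BAF53B), so the estimated depths lay within a factor of 1.08 while the list lengths did not. No list held a peak with fewer than 25 fragments. The height needed for a call also rose with the local background, so a gene with no peak was not shown to be closed.

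The sequences under the summits are shown first, because they place the dKO peaks relative to the gene starts and show how different in base composition these regions are. The first 2 lie just upstream of the annotated starts of LIN28A and TDGF1, the next is the intronic LIN28B peak, and the last is the peak downstream of NANOG. All are hg38, written 5′ to 3′ on the strand of the gene, and reach 100 bases on each side of the summit except where an exon limited the window (TDGF1).
LIN28A, upstream of the gene, intergenic, chr1:26410200-26410400, plus strand: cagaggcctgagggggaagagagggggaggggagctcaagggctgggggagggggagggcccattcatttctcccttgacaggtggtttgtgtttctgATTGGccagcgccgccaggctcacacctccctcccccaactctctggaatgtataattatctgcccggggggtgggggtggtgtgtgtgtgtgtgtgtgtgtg
TDGF1, upstream of the gene, in an LRRC2 intron, chr3:46574425-46574533, plus strand: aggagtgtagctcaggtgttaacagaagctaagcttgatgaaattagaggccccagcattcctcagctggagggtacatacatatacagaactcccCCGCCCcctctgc
LIN28B, intron, upstream of the canonical start, chr6:104956167-104956367, plus strand: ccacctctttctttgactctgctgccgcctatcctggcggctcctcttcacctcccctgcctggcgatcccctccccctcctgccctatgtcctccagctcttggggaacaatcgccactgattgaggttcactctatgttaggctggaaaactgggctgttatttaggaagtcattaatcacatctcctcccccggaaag
NANOG, downstream of the gene, intergenic, chr12:7806956-7807156, plus strand: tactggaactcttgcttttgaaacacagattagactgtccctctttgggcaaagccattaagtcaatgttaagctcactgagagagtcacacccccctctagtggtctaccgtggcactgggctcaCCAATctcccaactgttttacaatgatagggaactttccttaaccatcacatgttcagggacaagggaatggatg
Capitals mark matches on either strand to the GC box GGGCGG, the CCAAT box CCAAT, the SOX motifs CCTTTGT and CCATTGT, the octamer ATGCAAAT, the E-box CACGTG and a few longer motifs. The GC box occurred in 39.3% of the 201-base windows around all 25439 dKO summits, the CCAAT box in 26.5%, CCTTTGT in 4.82% and the octamer in 0.979%. The LIN28A window and the window downstream of NANOG each held a CCAAT box, the TDGF1 window held a GC box and the LIN28B window none of these motifs. None of the 4 windows held the octamer. GC content over the full 201 bases ran from 61.2% at LIN28A, with 3 CpG dinucleotides, to 46.3% with 1 CpG downstream of NANOG.

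In WT NPCs, 0 of the 10 genes had a promoter peak (a peak within 3 kb of the TSS), against 28.2% of all protein-coding genes, and the Wilson 95% interval of the share reached 27.8%. In dKO NPCs, LIN28A, SALL4, DNMT3B, PRDM14 and TDGF1 had one, which is 5 of 10 (Wilson 95% interval 23.7 to 76.3%) beside 56.4% of all genes. With BAF53B, LIN28A and SALL4 had one, which is 2 of 10 (5.67 to 51.0%) beside 45.0% of all genes. The dKO share was near that of the whole genome. The WT and BAF53B shares were lower than those of all genes, but the BAF53B interval holds 45.0%, and the WT interval ends just under 28.2%. These intervals cover counting error only and treat genes as independent. A promoter peak in dKO but not in WT was found for 28.6% of all genes, and in dKO alone for 12.4%. The corresponding members were 5, and 3 (DNMT3B, PRDM14 and TDGF1). The other 5 had none in any list, beside 41.3% of all genes. No member had a promoter peak in WT without one in dKO, a pattern that 0.399% of all genes showed.

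**Figure D1:**
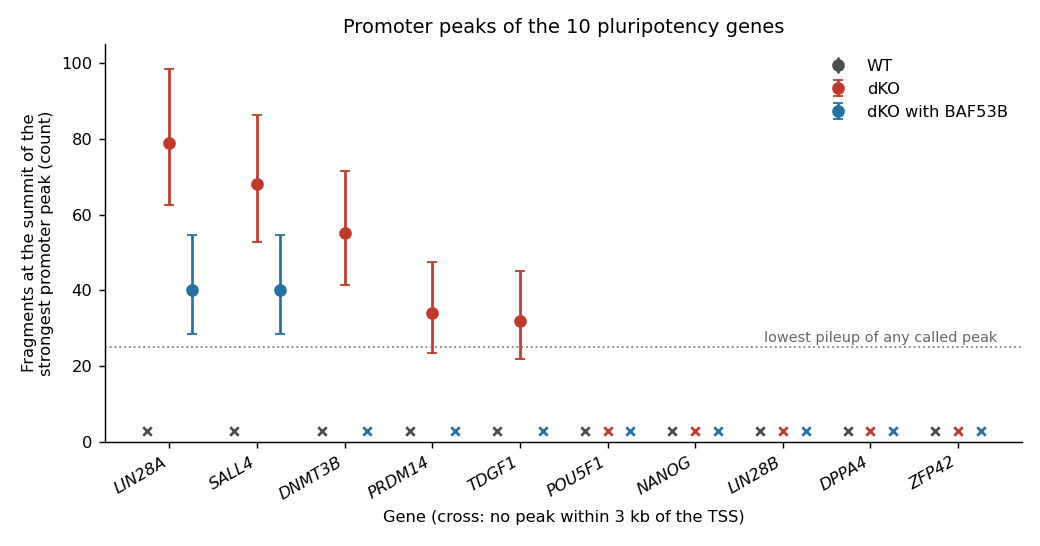
Fragments at the summit of the strongest peak within 3 kb of the TSS for each pluripotency gene (y axis, count), with exact Poisson 95% intervals for WT (grey), dKO (red) and dKO with BAF53B (blue). Crosses mark genes without such a peak, all 10 in WT. The dKO values run from 79 at LIN28A to 32 at TDGF1, and the 2 values with BAF53B are both 40.

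LIN28A (ENSG00000131914), the RNA-binding protein that blocks let-7 maturation, had the strongest promoter peak of the set. In dKO NPCs the peak was 1689 bp wide and held 79 fragments at a summit 517 bp upstream of the TSS (95% Poisson interval 62.5 to 98.5), which is 11.6 times the genome background and 3.67-fold over the local background of 20.8 fragments. That placed it at percentile 74.9 of all genes with a promoter peak in the dKO list, whose median strongest peak held 57 fragments. With BAF53B, 2 narrower peaks had their summits further upstream, with 40 fragments at 1345 bp and 39 at 2044 bp before the TSS. The former peak overlapped the dKO peak, and the latter lay outside it. The WT list had no peak here. On the scale of pileup over genome background, the dKO value was 1.96 times that with BAF53B (counting interval 1.34 to 2.87), but the 2 summits lay 828 bp apart and the ratio of the authors' folds was 1.13, since the local background also differed (20.8 and 11.6 fragments).

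The dKO list alone also held 2 peaks inside LIN28A introns, with 58 fragments at 6386 bp and 44 at 8256 bp past the TSS, and 1 with 36 fragments at 19106 bp before it. With 5 dKO peaks in its window, LIN28A had as many as LIN28B and SALL4, the most of the set. The remaining peak of the window was the promoter of the neighbour DHDDS, an enzyme of dolichol synthesis, at 2.5 kb past the end of LIN28A, and it was present in all lists with 30 (WT), 86 (dKO) and 41 (BAF53B) fragments.

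SALL4 (ENSG00000101115), a zinc finger transcription factor, had 3 promoter peaks in dKO and 2 with BAF53B. The dKO summits held 68 fragments at 118 bp upstream (interval 52.8 to 86.2; 9.98 times the genome background), 41 at 931 bp past the TSS and 49 at 2130 bp, both in introns. With BAF53B the summits held 40 fragments at 147 bp upstream and 34 at 2163 bp into the gene. The upstream summits of the 2 lists lay 29 bp apart, so the same site was measured, and the dKO value was 1.69 times that with BAF53B over genome background (counting interval 1.14 to 2.5). The ratio of folds was 1.28. For comparison, over the 8604 genes with a promoter peak in both lists the median ratio was 1.36 (quartiles 1.12 and 1.63), and 86.3% of genes were above 1, so LIN28A and SALL4 went the way of most genes. The median ratio of folds over these genes was 1.2, above that of LIN28A (1.13) and below that of SALL4. The neighbour ATP9A, a phospholipid flippase gene, contributed 2 further dKO peaks, with 49 and 33 fragments, and none in the other lists.

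DNMT3B (ENSG00000088305), the de novo DNA methyltransferase, had a dKO peak of 1151 bp whose summit lay 2 bp past the TSS, in the first exon. It held 55 fragments (interval 41.4 to 71.6), 8.07 times the genome background, at percentile 46.3 of all genes with a promoter peak. Weaker dKO peaks held 29 fragments at 12207 bp upstream and 30 in a coding exon 45464 bp into the gene. WT and BAF53B had no peak in the gene. Their only peak in the window belonged to the neighbour MAPRE1, a microtubule end-binding protein, with 44 fragments in WT and 52 with BAF53B beside 59 in dKO. These summits lay 124 bp (WT), 131 bp (BAF53B) and 266 bp (dKO) from the MAPRE1 start, the last inside the gene. The peaks of all lists overlapped. WT and BAF53B had their summits at nearly the same place, while the dKO height was taken at a different one. The neighbours DHDDS and ATP9A, described above, differed more between the lists.

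PRDM14 (ENSG00000147596), a repressor of differentiation genes in stem cells, and TDGF1 (ENSG00000241186) had the weakest promoter peaks, both in dKO alone. PRDM14 had 34 fragments at 511 bp upstream of its TSS (interval 23.5 to 47.5), at percentile 8.5 of genes with a promoter peak. TDGF1 had 31 fragments at 9 bp upstream and 32 at 2627 bp past the TSS (interval of the latter 21.9 to 45.2), at percentile 5.6. The second TDGF1 peak lay 627 bp before the start of the canonical transcript, which begins 3254 bp downstream of the outermost start. The whole TDGF1 region also lies in an intron of LRRC2, so these peaks could not be assigned to 1 gene by position.

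**Figure D2:**
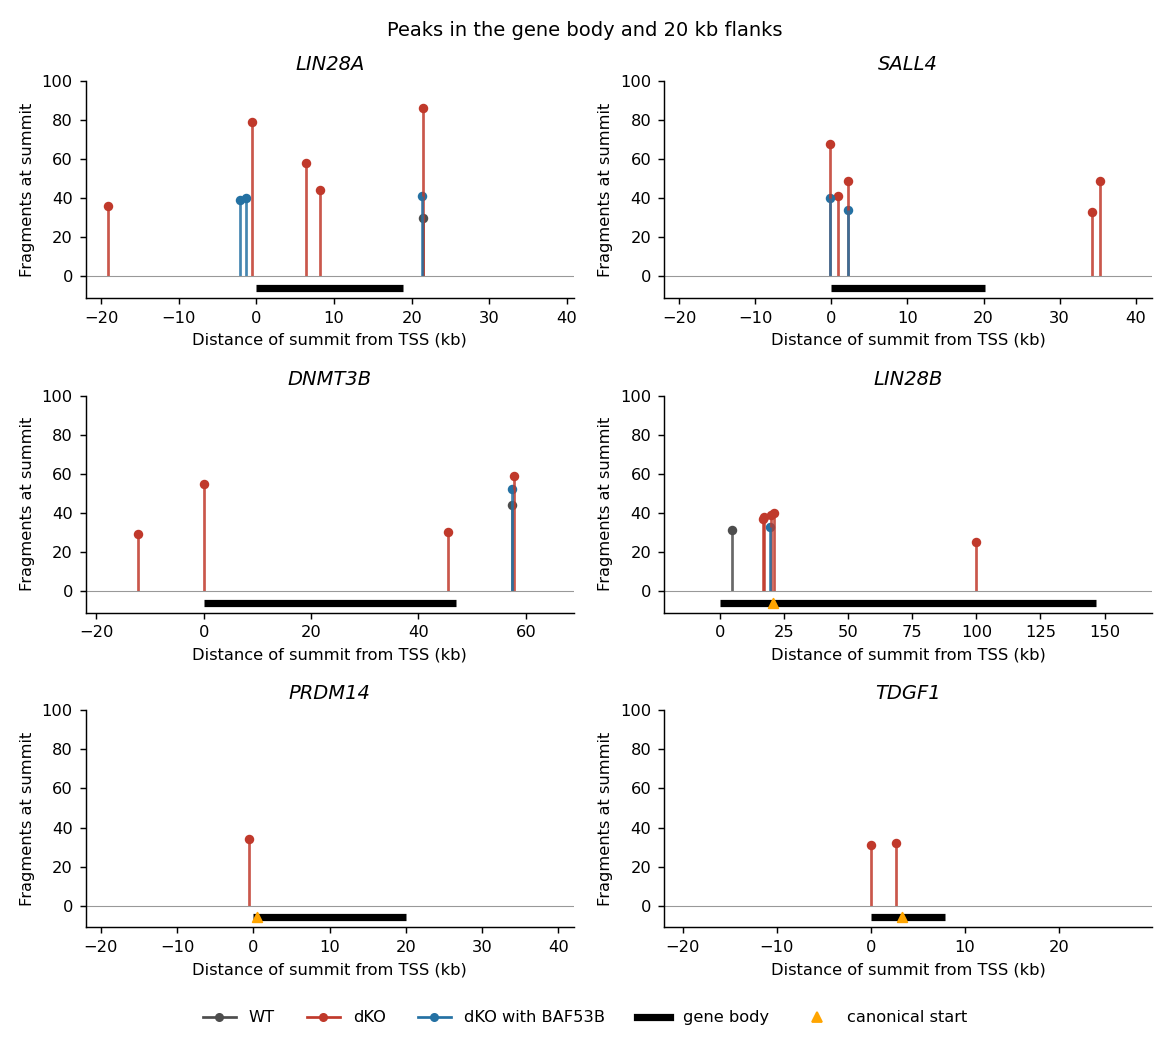
Summits in the gene body and 20 kb flanks of the 6 genes with peaks in the gene or at its start. The x axis is the distance from the TSS in kb along the direction of the gene, the height is the number of fragments at the summit, the black bar is the gene body and the triangle the canonical start where it differs from the TSS. The paired colours about 21 kb past the LIN28A TSS and 57 kb past the DNMT3B TSS are the neighbours DHDDS and MAPRE1.

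The absence of a peak can be read only where a peak of dKO size would have been called. With the dKO local background scaled to the WT depth, a WT summit needed 49 fragments at LIN28A, 40 at SALL4 and 40 at DNMT3B to enter the WT list, and the dKO summits scaled to WT depth were 73.4, 63.2 and 51.1. Peaks of the dKO height would therefore have entered the WT list at these 3 genes if WT had the same local background, which is not known there. At PRDM14 the scaled summit was 31.6 against 32 needed, and at TDGF1 29.7 against 32. With the same local background, a peak of the dKO height would have missed the WT list at TDGF1 and stood at its limit at PRDM14. At DNMT3B with BAF53B, 41 fragments were needed and the scaled dKO summit was 54.7. At PRDM14 with BAF53B, 33 were needed against 33.8, and at TDGF1 32 against 31.8. Both genes therefore stood at the limit of the BAF53B list, and their lack of a peak there cannot be read.

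These counts depended on list length and threshold. With each list limited to the length of the WT list by its highest −log10 q, LIN28A and SALL4 kept their dKO peak (2 of 10, beside 33.3% of all genes) and no member had one in WT (28.2%) or BAF53B (31.1%). At a −log10 q of at least 10, DNMT3B, LIN28A and SALL4 had a dKO peak (3 of 10, beside 42.3%), with 0 in WT (14.3%) and 0 with BAF53B (28.8%). With the dKO and BAF53B peaks held to the WT depth and threshold, 4 members were called in dKO (52.6%), all but TDGF1, and 2 with BAF53B (42.1%). A promoter window of 1 kb gave 0 (26.6%), 5 (52.9%) and 1 (42.1%), the last being SALL4. For the gene body and flanks together, the counts were 1 (25.1%), 3 (61.8%) and 2 (46.4%) at the stricter threshold and 3 (47.0%), 3 (51.0%) and 2 (49.6%) at equal length.

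LIN28B (ENSG00000187772), the paralogue of LIN28A, had no peak within 3 kb of its outermost TSS in any list, but its canonical transcript starts 20491 bp further downstream. There the dKO list had 4 peaks with 37, 38, 39 and 40 fragments, at 3978, 3308 and 840 bp before and 390 bp past the canonical start. With BAF53B there was 1 peak of 33 fragments, 999 bp before it. The WT list had no peak at that start, but it had 1 of 31 fragments in the first part of the gene, in an exon of the antisense transcript LIN28B-AS1 and 252 bp past another LIN28B start. That WT peak had no counterpart in dKO or BAF53B. A further dKO peak, of 25 fragments, stood 99930 bp into the gene. When promoters were taken at the canonical start, 6 of 10 members had a peak in dKO (58.7% of all genes), 3 with BAF53B (46.6%) and 0 in WT (29.0%). Counting the starts of all annotated transcripts, the same 6 members of dKO (62.8%), 3 of BAF53B (50.5%) and LIN28B in WT (31.6%) had one.

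NANOG (ENSG00000111704) had no promoter or gene body peak in any list. Its only peak in the window was in dKO, with 34 fragments, at 7910 bp past the end of the gene and 41840 bp from the start of the nearest other protein-coding gene. The 250 bases before the canonical start are shown as the counterpart of the windows above, since this is the promoter that pluripotency factors bind in stem cells. They lie in an intron of a longer NANOG transcript (RefSeq, GRCh38.p14, which listed promoters for 5 of the 10 genes).
NANOG promoter, chr12:7789152-7789401, plus strand: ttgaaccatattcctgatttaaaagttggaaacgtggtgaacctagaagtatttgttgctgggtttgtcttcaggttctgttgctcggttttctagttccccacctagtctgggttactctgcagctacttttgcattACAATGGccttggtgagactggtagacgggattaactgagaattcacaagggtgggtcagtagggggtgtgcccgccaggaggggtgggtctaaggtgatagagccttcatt
The capitals are a SOX motif (CCATTGT on the other strand), which occurred in 2.62% of all 35116 RefSeq promoter stretches of this length. Neither a GC box nor the octamer as spelled above was found. Only exact spellings were searched, so an octamer with a changed base was not counted, and its absence was not shown. In RefSeq's 300-base promoter the GC content was 46.7%, with 5 CpG. ZFP42 (ENSG00000179059) likewise had 1 peak, in dKO, with 33 fragments at 16965 bp past the end of the gene. DPPA4 (ENSG00000121570) had none, and its nearest peak was 359 kb (WT), 93.5 kb (dKO) and 141 kb (BAF53B) from the TSS.

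POU5F1 (ENSG00000204531) cannot be judged from these lists. It lies in a stretch of chromosome 6, from 28490265 to 33497817, in which none of the 3 lists had a single peak. The stretch is 5.008 Mb long and holds 183 protein-coding genes, more than any other of the 3346 peak-free intervals over 200 kb, and it spans the major histocompatibility complex. At the share of promoter peaks in the genome as a whole, 103 genes of the dKO interval would have carried one. The cause of the gap was not tested, and the absence of a POU5F1 peak carries no information about its chromatin. Without the genes of this and the next 2 peak-free stretches, the WT, dKO and BAF53B promoter counts were 0 of 9 (Wilson 95% interval to 29.9%, beside 28.6% of all genes), 5 of 9 (26.7 to 81.1%, beside 57.2%) and 2 of 9 (6.32 to 54.7%, beside 45.6%), so that each interval held the share of all genes.

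Counting the gene body and both 20 kb flanks, 3 of the 10 genes had a WT peak (47.0% of all genes), 8 a dKO peak (78.4%) and 4 a BAF53B peak (67.9%). The windows together held 3 WT peaks, 24 dKO peaks and 7 BAF53B peaks. Of the 24 dKO peaks, 8 had their summit within 3 kb of the TSS of a member, 2 were at another start of the same gene, 4 were at the promoter of another protein-coding gene and 10 were elsewhere. In the WT list, 2 of the 3 peaks were the DHDDS and MAPRE1 promoters. With peaks at other genes' promoters left out, 1 member remained in WT (LIN28B; 28.5% of all genes), 8 in dKO (64.5%) and 3 with BAF53B (49.8%). Within 20 kb of the TSS, the mean number of peaks per member was 0.1 (WT), 1.6 (dKO) and 0.5 (BAF53B), beside 0.471, 1.19 and 0.83 per protein-coding gene. LIN28A had the most in dKO, 4. Over the whole windows, members had 4.23, 33.8 and 9.87 peaks per Mb beside 4.1, 12.6 and 8.47 for all genes, so for WT and BAF53B the order of members and all genes depended on the window. In dKO the members were higher by both measures, without a measure of spread. The member windows covered only 0.709 Mb, and LIN28A, LIN28B and SALL4 held 5 dKO peaks each. With the dKO list limited to the WT length, 3 of 10 members had a peak in the window, beside 51.0% of all genes.

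The distance from a member's TSS to the nearest peak had a median of 251 kb (WT), 8.38 kb (dKO) and 109 kb (BAF53B), beside 46.6, 0.427 and 8.45 kb for all protein-coding genes. In WT, 7 members were over 100 kb from any peak (35.2% of all genes), in dKO 1, POU5F1 (11.5%), and with BAF53B 5 (18.5%). Without the genes of the peak-free stretches, POU5F1 among them, the medians were 173, 0.371 and 76.3 kb for members beside 45.0, 0.346 and 7.65 kb for all genes, so that in dKO the members were close to genes in general. The distance was shorter in dKO than in WT at 9 of the 10 genes, POU5F1 included, beside 72.2% of all genes. LIN28B, with its WT peak, was the exception.

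**Figure D3:**
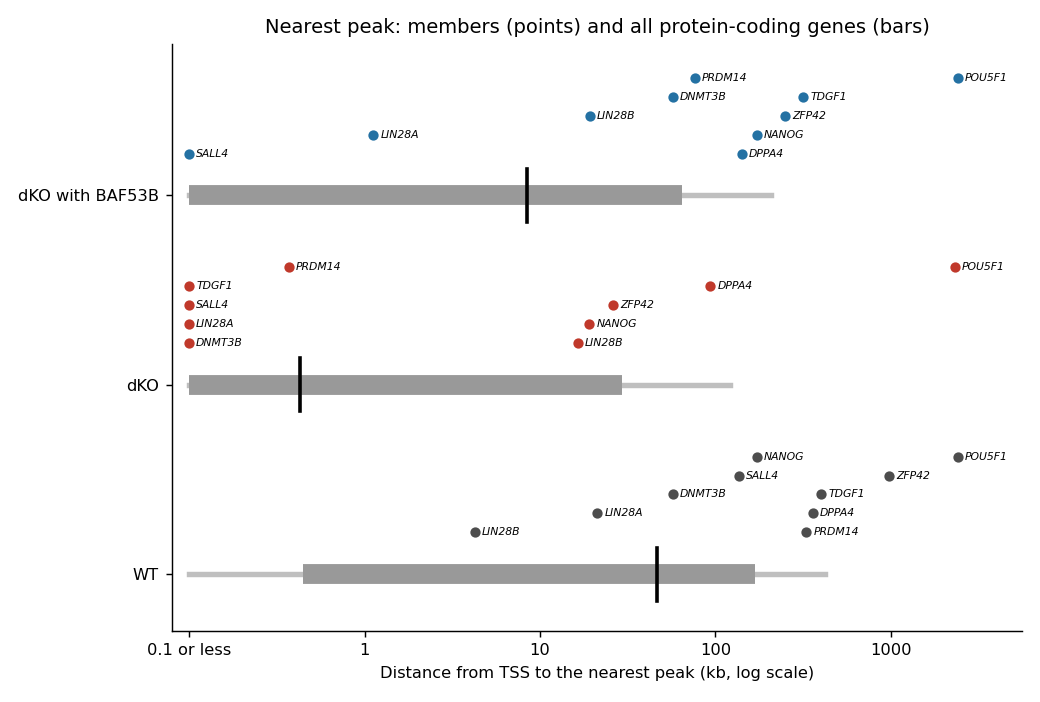
Distance from the TSS to the nearest peak in each list (x axis, kb, log scale, distances under 0.1 kb drawn at 0.1). Points are the 10 pluripotency genes, and for all 20033 protein-coding genes the thick bar spans the quartiles, the thin bar the 10th to the 90th percentile and the black line marks the median. Most WT points lie to the right of the WT median of 46.6 kb, and 4 dKO points lie at the left edge.

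Promoters rich in CpG are accessible in most cell types, so the members were also placed by the CpG content of the 500 bp on each side of the TSS (observed over expected CpG). Over all genes, the WT, dKO and BAF53B lists had a peak at 41.5%, 78.4% and 64.8% of high-CpG promoters (0.65 or more), and at 5.13%, 15.6% and 10.3% of low-CpG promoters (under 0.4). The 4 high-CpG members were SALL4 (0.67), ZFP42 (0.72), DNMT3B (0.74) and PRDM14 (0.86). Of these, 0 had a WT peak, 3 a dKO peak and 1, SALL4, a peak with BAF53B. ZFP42 was the high-CpG member without one in any list. In the middle class were NANOG (0.4), LIN28B (0.42), DPPA4 (0.48), LIN28A (0.5) and POU5F1 (0.56), where LIN28A alone had a dKO or BAF53B peak, beside 54.4% and 39.6% of all genes of that class. TDGF1 (0.24) was in the low class and had a dKO peak. The classes depended on the start used: at the canonical start TDGF1 (0.48) moved to the middle class, and NANOG (0.3) and POU5F1 (0.36) to the low class.

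**Figure D4:**
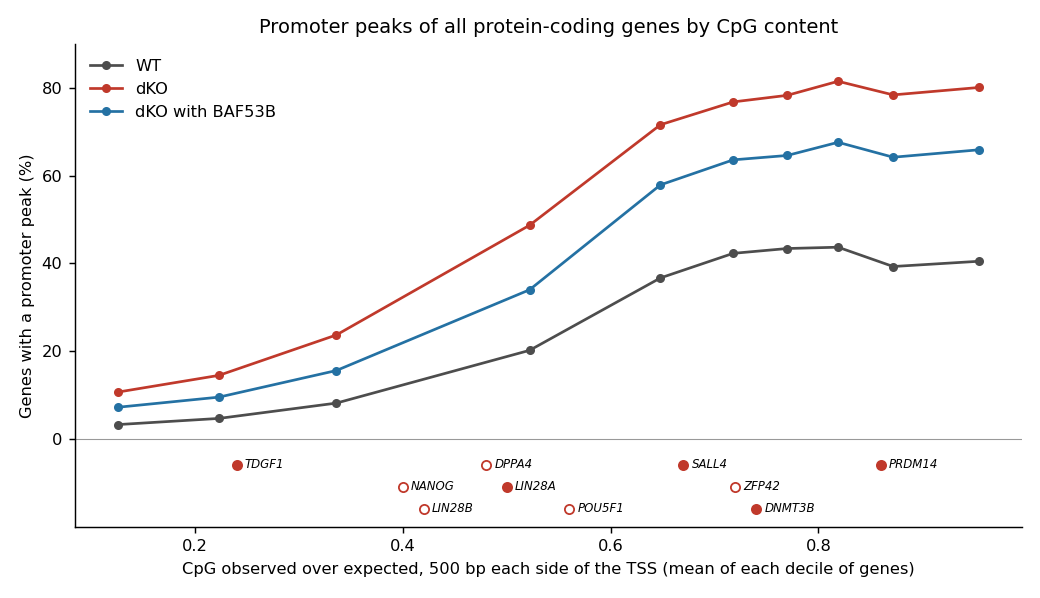
Share of all protein-coding genes with a promoter peak (y axis, percent) in deciles of CpG observed over expected around the TSS (x axis), for WT, dKO and dKO with BAF53B. Circles under the zero line place the 10 pluripotency genes on the same x axis, filled where the gene had a dKO promoter peak. Shares in dKO rise from 10.7% in the lowest decile to 80.1% in the highest.

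Among 24 further pluripotency genes, listed from general knowledge, the WT, dKO and BAF53B lists had a promoter peak at 4, 9 and 6 (Wilson 95% intervals 6.68 to 35.9%, 21.2 to 57.3% and 12.0 to 44.9%), beside 28.2%, 56.4% and 45.0% of all genes. TBX3, a T-box factor, and VRTN had the highest dKO peaks, with 89 and 77 fragments, and were also called in WT (32 and 37) and with BAF53B (39 and 43). POLR3G, a subunit of RNA polymerase III, was called in all lists at 35, 43 and 33 fragments. TRIM71, the let-7 target that regulates stem cell mRNAs, was called at 53 fragments in dKO and 37 with BAF53B, and ZSCAN10 at 45 and 32. L1TD1 (44) and DNMT3L (39), the cofactor of DNMT3B, were called in dKO alone. KLF4, a reprogramming factor also used in many differentiated cells, had 36 fragments in dKO and 46 with BAF53B. The other 15 genes, among them NODAL, FGF4, UTF1 and DPPA2, had no promoter peak in any list.

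Promoter peaks were also counted at 12 neural progenitor markers. The WT list had a promoter peak at 1 of them (VIM, 34 fragments), the dKO list at 7 and the BAF53B list at 4, beside 28.2%, 56.4% and 45.0% of all genes, and PAX6, NES, HES5, PROM1 and OTX2 had none in any list. Near or under the shares of all genes, these promoter counts cannot check the label of the cells. SOX2, a factor that stem cells and neural progenitors share, had 70 fragments in dKO and no peak in the other lists. SOX1, an early neural factor, had 46 fragments in dKO and 67 with BAF53B, FABP7, a radial glia gene, 28 and 45, and VIM 37 and 52. These 3 were higher with BAF53B, while CDH2 had 42 fragments in both lists and LHX2 (39) and MSI1 (38), like SOX2, were called in dKO alone. For SOX2 and SOX1 the paper reports more closed chromatin in dKO NPCs than in WT, the reverse of these calls. The WT interval of 1.49 to 35.4% holds the share of all genes, and in the gene body and flanks 6 of the 12 had a WT peak, beside 47.0% of all genes. With all lists limited to the WT length, 1, 1 and 3 of the 12 had a promoter peak (28.2%, 33.3% and 31.1% of all genes). Of 12 ubiquitously used genes, 8, 11 and 8 had a promoter peak in the 3 lists, with RPLP0 at 64, 111 and 72 fragments and TBP at 48, 101 and 45.

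Markers of other cell types were counted in the same way, beside the same shares of all genes (28.2%, 56.4% and 45.0%). Neuron markers had 1, 3 and 1 of 8 in WT, dKO and BAF53B, led by MAP2 (33, 69 and 42 fragments) and TUBB3 (53 in dKO). The paper reports reduced accessibility of MAP2 and TUBB3 in dKO NPCs, the reverse of these calls. Mesendoderm genes had 0, 2 and 0 of 8 (EOMES with 32 and MIXL1 with 31 fragments in dKO), and mesenchymal genes 0, 2 and 2 of 8 (COL1A1 with 60 in dKO and 36 with BAF53B, and PRRX1 with 33 with BAF53B). With 8 genes a list these counts are imprecise, as the dKO interval of 13.7 to 69.4% for the neuron markers shows. The part of cell mixture in the pluripotency peaks was not tested. In pooled bulk libraries, a few cells with an open site and many cells with a partly open one cannot be told apart.

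Of 11 relatives of the members that somatic cells use, 4, 10 and 6 had a promoter peak (36.4%, 90.9% and 54.5%). Of these relatives, 10 had a high-CpG promoter, against 4 of the 10 members, and 41.5%, 78.4% and 64.8% of all high-CpG promoters had a peak. YY1, the relative of ZFP42 found in all cells, had 52, 92 and 59 fragments in the WT, dKO and BAF53B lists, and POU2F1, the ubiquitous octamer-binding factor, 61, 90 and 61. The neural POU factors POU3F2 (51, 44 and 41) and POU3F3 (43, 48 and 50) were called in every list at similar heights. SALL1 (71 and 39) and DNMT3A (64 and 44) were called in dKO and BAF53B, as was SALL4, while DNMT1 (53), SALL2 (44), POU3F1 (58) and PRDM16 (52) were called in dKO alone, as were DNMT3B and PRDM14. SALL3 had no promoter peak.

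**Figure D5:**
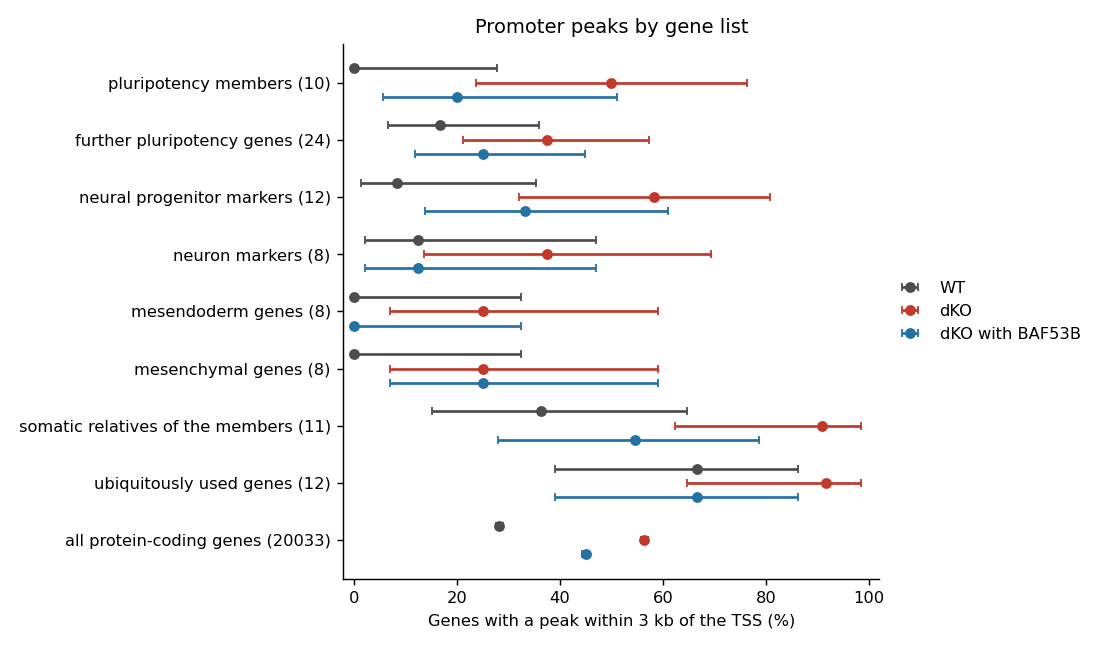
Share of the genes of each list with a peak within 3 kb of the TSS (x axis, percent, with Wilson 95% intervals that cover counting error only), for WT (grey), dKO (red) and dKO with BAF53B (blue). The number of genes is given in brackets. The pluripotency genes go from 0 of 10 in WT to 5 in dKO, and all protein-coding genes from 28.2% to 56.4%.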

How the data were processed

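ATAC-seq was performed on 6 samples, and 3 peak lists, each pooled by the authors over the 2 replicates of a group, were analysed. Per the labels and the study's methods, adapters were trimmed with cutadapt 1.13, reads aligned to hg38 with Bowtie2 2.2.5, duplicates removed with SAMtools 1.3.1 and Picard 1.90 and peaks called with MACS2. The calling options and the shift of Tn5 insertion sites are not given in the sources used here. The deposited fold is a ratio of summit pileup to local background with a pseudocount of 1, and the significance deposited beside it is a Poisson −log10 p-value of that pileup together with its adjusted form, −log10 q, which was at least 5 for every peak. The deposited score column was not used.

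The whole number of fragments at each summit was solved from the fold and −log10 p (100% of peaks, tolerance 0.001 on −log10 p). The lowest local background of a list served as its depth, since total read numbers are not in the peak lists. On simulated data, made without noise by the same formulas, 100% of 1984 pileups and of 1500 planted windows were recovered. This checked the code only. A peak counted with at least 1 bp of overlap, and genes came from GENCODE version 44. All 24 chromosomes had their last peak inside the reference. Scripts ran in Python 3.11.15 with pandas 2.3.3, scipy 1.17.1, matplotlib 3.10.9 and numpy 2.4.6.

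The members, the gene lists and the motifs were chosen with earlier results of these data known. Named were all members, neighbours with a TSS within 3 kb of a counted peak, the 8 further pluripotency genes and 4 neural progenitor markers with the highest pileup over genome background, all relatives of the members and up to 2 examples of other lists. NODAL, FGF4, UTF1, DPPA2, CDH2, LHX2, MSI1 and the progenitor markers without a peak were named after their values were seen. The alternatives were a stricter threshold, equal list length, other windows and gene starts, other scalings and other treatment of neighbours. Added after seeing the data were the canonical start, the WT depth and threshold, and leaving out peak-free intervals. Sequences at some member peaks are not reported here.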

Additional observations from a re-analysis of the deposited data

How the results depend on the processing

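No paired analysis was possible because the replicates of a group were merged into a single list before deposit, and for the same reason no replicate could be left out. The count of members with a promoter peak was 0, 5 and 2 for WT, dKO and BAF53B. It became 0, 3 and 0 at a −log10 q of at least 10 (14.3%, 42.3% and 28.8% of all genes), where DNMT3B, LIN28A and SALL4 were left in dKO, and 0, 2 and 0 with all lists limited to the length of the WT list (28.2%, 33.3% and 31.1%), where LIN28A and SALL4 were left. With all transcript starts it was 1, 6 and 3 through LIN28B (31.6%, 62.8% and 50.5%), and with a 1 kb window 1 with BAF53B. At the WT depth and threshold dKO had 4, without TDGF1 (52.6%). Members with a peak in the gene body or flanks went from 3, 8 and 4 to 1, 3 and 2 at the stricter threshold, to 3 in dKO and 2 with BAF53B at equal length, and to 1 in WT without other genes' promoters. The LIN28A ratio of dKO over BAF53B fell from 1.96 to 1.13 on the authors' fold. At the stricter threshold and at equal length no ratio could be given, since BAF53B had no promoter peak of a member there. The median distance to the nearest peak was 824, 134 and 284 kb in WT, dKO and BAF53B at the stricter threshold, 134 and 284 kb in dKO and BAF53B at equal length, and 0.371 kb in dKO without POU5F1 and the other genes of the peak-free stretches (0.346 kb for all genes). For the further pluripotency genes, 0 in WT, 6 in dKO and 2 with BAF53B had a promoter peak at the stricter threshold. At equal length the counts were 4, 2 and 2, so WT then had the most calls. For the neural progenitor markers, 0 in WT, 1 in dKO and 3 with BAF53B had a promoter peak at the stricter threshold. The counts were 1, 1 and 3 at equal length, and dKO had 3 and BAF53B 4 at the WT depth and threshold. In each of these settings BAF53B had more calls than dKO. With all transcript starts the counts were 3, 8 and 6. The order of the lists, with most calls in dKO, was kept in each of these counts for the members, apart from the gene body and flanks at equal length, where WT and dKO both had 3.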

Other observations

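The peak-free stretch around POU5F1 was followed in gene number by a stretch of 3.088 Mb with 54 protein-coding genes on chromosome 17 (35765074 to 38853388) and one of 0.952 Mb with 35 genes on chromosome 19 (54133972 to 55085910), also without a peak in any list and without a listed gene.

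Of 34 copies and pseudogenes of the members in the annotation, 1, 3 and 1 had a peak in the WT, dKO and BAF53B lists. TDGF1P7 had one in all lists, and NANOGP8 and POU5F1B had one in dKO alone. Reads from such near-identical copies can be shared with their parent genes, so these calls are uncertain. No share over all pseudogenes is given beside the counts, so they cannot be read as many or few.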
